A study of Rattus norvegicus with 6 samples.

Results

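The matrix metalloproteases (Mmp genes), their tissue inhibitors (Timp genes), the membrane-bound ADAM proteases, the secreted ADAMTS proteases and the ADAMTS-like proteins were described in the kidney inner medulla (IM) tip of control and diabetic rats. Members were the rows of the table whose gene name, the text before the first colon, begins with Mmp, Timp, Adam, Adamts or Adamtsl followed by a digit. This gave 54 of 27321 rows: 22 Adam, 15 Mmp, 11 Adamts, 5 Timp and 1 Adamtsl. Of these, 6 merge overlapping or adjoining genes, and 48 stand for a single gene. The animals were male Sprague-Dawley rats, 3 months of age, given either citrate buffer as vehicle or streptozotocin (STZ), which destroys insulin-producing cells, injected into the tail vein at 62.5 mg/kg. RNA was taken from the whole IM tip 15 days after the injection, with 3 libraries in each group, and diabetes was judged from blood glucose on the day after STZ. The labels do not state that each library is a separate rat, and p-values measure the spread between these libraries, which may in part be technical. The deposited values are normalized counts, that is, reads per gene after division by the library's size factor. Values of a group are given below in the order of replicates 1, 2 and 3.

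Matrix metalloproteases are zinc enzymes that cut collagens, laminins, proteoglycans and other matrix proteins, and most are made as inactive proenzymes. TIMPs bind their active site and block it, and TIMP-3 also inhibits several ADAM and ADAMTS enzymes. ADAM proteases such as ADAM10 and ADAM17 release growth factors and receptors from the cell surface. ADAMTS proteases act on hyaluronan-binding proteoglycans such as versican, or process procollagens. In the kidney these families are studied for their part in matrix turnover, fibrosis and growth factor shedding.

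The single-gene members were looked up by symbol in a RefSeq table of rat promoters on the GRCr8 assembly, which covers 250 bases before to 50 bases after each gene's start, and 33 of the 48 matched 1 entry. The letters TGANTCA, a core of the AP-1 site that reads alike on both strands, occurred in 6 of the 33 and in 7.33% of all promoters in the table. TATAAA, read on the gene's own strand, occurred in 9 of the 33 and in 8.8% of all promoters. GGGCGG, the GC box, counted on both strands, occurred in 17 of the 33 and in 33.1% of all promoters. A member was matched only if its symbol had 1 entry, whereas the shares over all promoters take in every entry. Matches to different motifs among these cannot overlap, and a match describes letters in the window, not a bound site. Of the 6 matched genes in a run of Mmp genes on chromosome 8, 4 held both TGANTCA and TATAAA. The last 120 bases before the start are shown for 3 genes of that run, Mmp13, Mmp10 and Mmp7, and for 3 members that were read in every library, Mmp11, Adam17 and Timp3. All are 5′ to 3′ on the gene's strand, with the motifs named above in capitals.
Mmp13, chr8:12782709-12782828, plus strand: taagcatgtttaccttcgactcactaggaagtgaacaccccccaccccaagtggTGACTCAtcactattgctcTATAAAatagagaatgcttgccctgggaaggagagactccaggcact
Mmp10, chr8:12974587-12974706, plus strand: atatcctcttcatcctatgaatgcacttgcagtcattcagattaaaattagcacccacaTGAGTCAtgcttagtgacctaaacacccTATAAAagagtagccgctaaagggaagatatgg
Mmp7, chr8:13132923-13133042, plus strand: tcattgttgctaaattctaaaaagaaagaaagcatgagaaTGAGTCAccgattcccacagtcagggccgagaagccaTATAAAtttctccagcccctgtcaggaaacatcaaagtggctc
Mmp11, chr20:12730164-12730283, plus strand: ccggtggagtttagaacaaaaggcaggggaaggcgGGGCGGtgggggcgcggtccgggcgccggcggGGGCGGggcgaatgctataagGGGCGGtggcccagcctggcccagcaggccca
Adam17, chr6:46649345-46649464, minus strand: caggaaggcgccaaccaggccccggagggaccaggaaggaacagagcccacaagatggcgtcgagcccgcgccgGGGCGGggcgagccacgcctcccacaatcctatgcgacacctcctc
Timp3, chr7:19459559-19459678, minus strand: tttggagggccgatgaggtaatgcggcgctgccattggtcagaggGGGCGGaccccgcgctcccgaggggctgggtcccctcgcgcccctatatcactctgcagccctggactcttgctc
The G and C share of the whole window was 68.0% for Mmp11 and 68.7% for both Adam17 and Timp3, against 38.3% to 49.7% for the 6 genes of the chromosome 8 run and a median of 51.7% over all promoters. The 15 matched members with enough reads to be tested had a median of 65.0% and the other 18 matched members 51.3%.

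Reads on all features numbered between 3412311 and 5575171 per library, and 1 read corresponded to 0.763 to 1.11 normalized counts. All control libraries ran on lane 3, whereas lanes 7, 6 and 8 held the STZ libraries, and lane and treatment cannot be told apart. In whole tissue, fewer cells of a type and less RNA per cell cannot be told apart either. Collecting duct markers were plentiful, with a summed level of 5 genes between 32643 and 54492 normalized counts in control and between 42452 and 81469 in STZ libraries, while 4 proximal tubule markers summed to 18.5 to 73.5 and 24.1 to 63.2. A measure of background was the 95th percentile of 835 olfactory receptor genes, which stood at 2.05, 6.33 and 10.02 normalized counts in the control libraries and at 1.86, 5.93 and 9.03 in the STZ libraries.

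No matrix protease or TIMP passed the test between STZ and control rats. Testing was confined to the 21 members whose mean over the 6 libraries reached 5 normalized counts, of the 54 in all, and it used limma on log2(normalized count + 1) over all 13486 features that met this minimum. At an adjusted p under 0.05 by the Benjamini-Hochberg procedure, 0 of 21 members were called, against 283 features or 2.1% of all features tested (1.17% higher in STZ and 0.927% lower). Before adjustment, p was under 0.05 for 2 members, Mmp11 and Adam17, and for 14.7% of all features. On the recovered whole reads, edgeR and DESeq2 also called 0 of the 21, with 3 members each at an unadjusted p under 0.05. DESeq2 left at least Adam19 without an adjusted p, and a missing value counted as not called. The same 2 members, Mmp11 and Adam17, were those whose 3 STZ values all lay on one side of the 3 control values, Mmp11 above and Adam17 below. This held for 20.3% of all features tested, 10.1% higher and 10.3% lower. The log2 fold changes (log2FC), always STZ over control, ran from −1.91 to 1.21 with a median of 0.10, compared with a median of 0.01 over all features, and 11 were positive and 10 negative. Their standard errors ran from 0.17 to 1.26 with a median of 0.53, against a median of 0.29 over all features. At the threshold itself, Timp4 was just inside with a mean of 5.22 normalized counts and Adam18 just outside with 4.91.

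**Figure D1:**
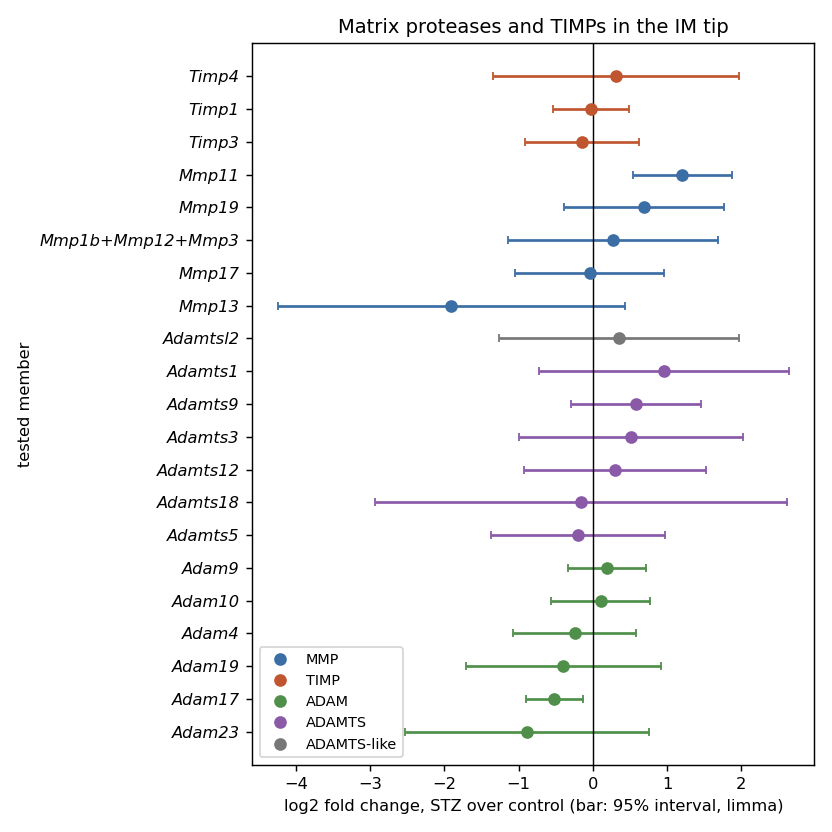
Log2 fold change, STZ over control, of the 21 tested members on the horizontal axis, with the 95% interval from limma as a bar and the gene family as colour. Only the intervals of Mmp11 (0.54 to 1.87) and Adam17 (−0.91 to −0.14) lie wholly on one side of 0, and these intervals are not adjusted for the number of features tested.

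Among the inhibitors, Timp3, whose protein is bound to the matrix, was read most. It held between 90.1% and 95.3% of all reads that fell on members in a library, a share that reflects transcript length as well as level. The genes Timp1, Timp3 and Timp4 are nested in synapsin genes on the opposite strand, and whether counting used strand is not given. Timp3, on chromosome 7 of rn4 from 19677155 to 19727072, showed 14485, 20940 and 9559 normalized counts in the control libraries. The STZ libraries showed 19493, 9807 and 11172. Every STZ value lay within the control range, and both groups held a library with a value well above that of the others. The means were 14995 ± 5708 and 13490 ± 5243 (SD, n = 3 each), and the log2FC was −0.15 (SE 0.35, 95% interval −0.91 to 0.62, adjusted p = 0.924 by limma). Its sign turned with control replicate 2 left out (0.13) or STZ replicate 2 left out (0.05).

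Timp1, a soluble inhibitor often induced in injured kidney, is on the X chromosome from 12542495 to 12547094. It had 503, 402 and 276 normalized counts in the control libraries and 383, 336 and 413 in the STZ libraries. The STZ values again fell inside the control range. The log2FC was −0.02 (SE 0.23, adjusted p = 0.981), with a 95% interval of −0.53 to 0.48, and its sign turned with control replicate 1, control replicate 2 or STZ replicate 2 left out (0.01 to 0.17).

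Timp4, known from heart and vessels, had 6.15, 3.05 and 3.34 normalized counts in control and 1.86, 10.9 and 6.02 in STZ libraries. These values were above the olfactory percentile in 2 of 6 libraries, and the log2FC was 0.31 (SE 0.75, adjusted p = 0.927). Timp2, which takes part in activating proMMP-2, is entered in the table under a protein name, so it is not counted among the members. It had 37.9, 49.6 and 64.6 normalized counts in control and 44.6, 57.4 and 90.3 in STZ libraries, with overlapping groups and a log2FC of 0.30 (SE 0.30, 95% interval −0.37 to 0.97, adjusted p = 0.748). Across the 4 inhibitors no log2FC was farther from 0 than 0.31. The other Timp members, which merge Timp3 or Timp4 with a neighbour, never had more than 3 reads.

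Mmp11, or stromelysin-3, which unlike most MMPs is cut to its active form inside the cell by furin, had the smallest p of all members. It lies on chromosome 20 of rn4 from 13129666 to 13138449. Its normalized counts were 18.5, 26.7 and 14.5 in the control libraries and 52.0, 48.5 and 38.1 in the STZ libraries. All 3 STZ libraries were higher than all 3 control libraries. Group means were 19.9 ± 6.24 and 46.2 ± 7.20 (SD, n = 3 each), and their ratio was 2.33. The log2FC was 1.21 (SE 0.30), and at an adjusted p of 0.0712 by limma the difference did not pass. With each library left out in turn it ran from 1.01 to 1.43, and the adjusted p from 0.102 to 0.235.

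Furin, the proprotein convertase that activates stromelysin-3 and the membrane-type MMPs, was not a member. It had 301, 322 and 292 normalized counts in control and 669, 422 and 563 in STZ libraries, also without overlap. Its log2FC was 0.83 (SE 0.20, 95% interval 0.38 to 1.27) with an adjusted p of 0.0651. This p was under 0.05 in 4 of 19 alternatives, with the smallest from DESeq2 (0.00471), but not with edgeR.

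The other tested Mmp members were read less. Mmp17, a membrane-type MMP held by a lipid anchor, had 8.20, 12.2 and 26.7 normalized counts in control and 11.1, 15.8 and 14.1 in STZ libraries, and the log2FC was −0.04 (SE 0.46, adjusted p = 0.983). Mmp19, a protease of basement membranes, had 14.4, 6.10 and 5.57 in control and 18.6, 12.9 and 10.04 in STZ libraries. Its groups overlapped through control replicate 1, and the log2FC was 0.69 (SE 0.49, adjusted p = 0.599). The merged feature of Mmp1b, Mmp12 and Mmp3 had 3.08, 9.15 and 12.2 in control and 4.64, 7.91 and 18.1 in STZ libraries (log2FC 0.27, SE 0.64, adjusted p = 0.924), and its reads cannot be assigned to one of the 3 genes.

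Mmp13, a collagenase with a TATAAA and an AP-1 core in the promoter stretch printed above, rested on 1 library. The control libraries showed 54.3, 3.05 and 5.57 normalized counts. The STZ libraries showed 0, 2.97 and 6.02. The other 5 libraries were thus between 0 and 6.02, and the log2FC of −1.91 (SE 1.06, adjusted p = 0.454) became −0.77 with control replicate 1 left out. Mmp13 is the first of 8 member features that lie in a run on chromosome 8 of rn4 from 4158886 to 4533724, the others being the merged feature, Mmp1a, Mmp7, Mmp8, Mmp10, Mmp20 and Mmp27. Without Mmp13, the summed level of that run was 6.15, 21.4 and 24.5 normalized counts in control and 7.43, 14.8 and 22.1 in STZ libraries. In both groups the lowest sum was in replicate 1, as was the lowest olfactory percentile.

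Of the Mmp members that were not tested, the gelatinase Mmp9 had the highest mean, with 1.03, 6.10 and 6.68 normalized counts in control and 0.929, 2.97 and 10.04 in STZ libraries. The remaining 9, which include Mmp7, Mmp8, Mmp10 and the membrane-type Mmp15, had means between 0.155 and 2.80, and 3 of the 10 never exceeded 3 reads in a library. Mmp14, the membrane-type MMP that activates proMMP-2, is entered under a protein name. It had 5.13, 1.53 and 12.2 normalized counts in control and 13.0, 8.90 and 16.1 in STZ libraries, with overlap and a log2FC of 1.18 (SE 0.65, adjusted p = 0.447). Mmp23, entered in the same way, had 6.15, 17.5 and 11.1 in control and 26.0, 18.8 and 18.1 in STZ libraries. Its groups did not overlap, and the log2FC was 0.89 (SE 0.42, adjusted p = 0.37). Mmp16, also under a protein name, had 6.15, 9.15 and 4.45 in control and 7.43, 5.93 and 6.02 in STZ libraries. The groups of Mmp16 overlapped, with a log2FC of 0.02 (SE 0.56, adjusted p = 0.996 by limma). Mmp2 was not analysed here.

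Adam17, the sheddase that releases TNF and several ligands of the EGF receptor, was the member measured with the smallest SE. It lies on chromosome 6 of rn4 from 41882434 to 41930755. It had 278, 290 and 307 normalized counts in the control libraries and 211, 213 and 186 in the STZ libraries. All 3 STZ libraries were lower than all 3 control libraries, and the spread within each group was small. Group means were 292 ± 14.8 and 203 ± 15.0 (SD, n = 3 each), and their ratio was 0.696. The log2FC was −0.52 (SE 0.17), and at an adjusted p of 0.171 by limma the difference did not pass. It stayed between −0.56 and −0.42 over the 19 alternatives tried, with adjusted p-values between 0.113 and 0.396. In order of p, Adam17 was 972nd and Mmp11 394th of the 13486 features tested.

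**Figure D2:**
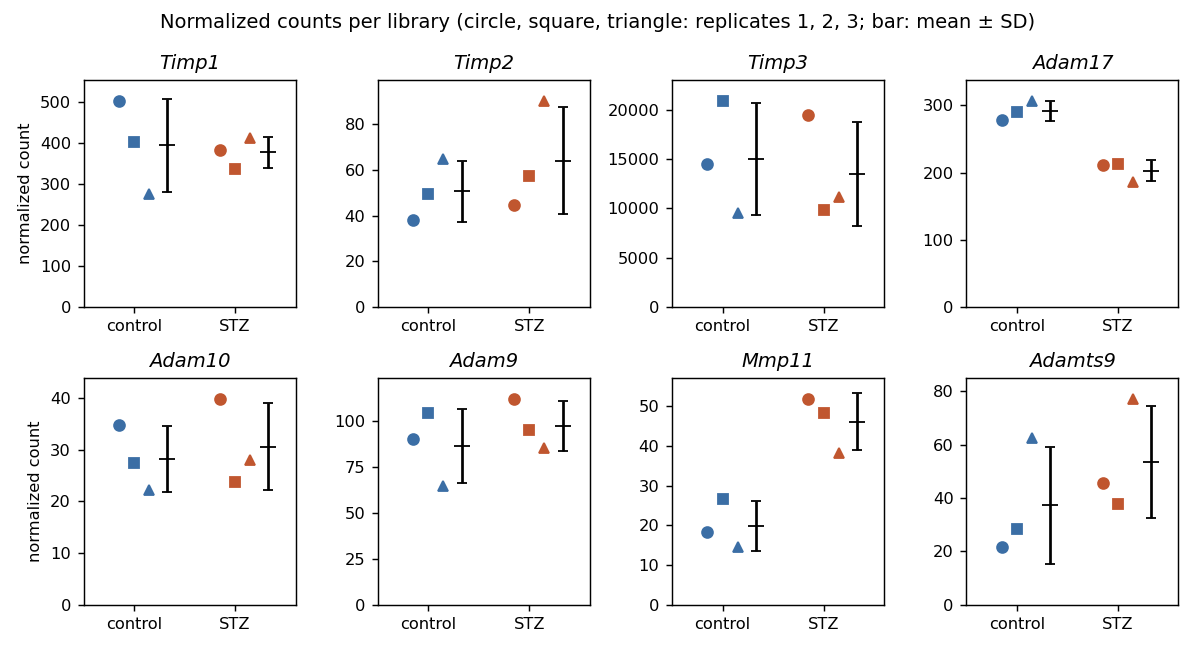
Normalized counts on the vertical axis in the 3 control and 3 STZ libraries for 3 inhibitors, 3 ADAM sheddases, Mmp11 and Adamts9, with the group mean ± SD beside the points. The groups are apart for Adam17 (control 278 to 307, STZ 186 to 213) and Mmp11 (control 14.5 to 26.7, STZ 38.1 to 52.0) and overlap in the other 6 panels.

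Adam10, the sheddase that cuts Notch receptors and cadherins, had 34.9, 27.5 and 22.3 normalized counts in control and 39.9, 23.7 and 28.1 in STZ libraries. The groups overlapped, with a log2FC of 0.10 (SE 0.30, 95% interval −0.57 to 0.78, adjusted p = 0.941). Its sign turned without control replicate 3 (−0.05), without STZ replicate 1 (−0.10) or without both replicate 3 libraries (−0.01). Adam9, a widely expressed sheddase, had 90.2, 104 and 64.6 in control and between 85.3 and 112 in STZ libraries, and its log2FC was 0.19 (SE 0.24, 95% interval −0.33 to 0.71, adjusted p = 0.824). The intervals of Adam10 and Adam9 both overlap that of Adam17 (−0.91 to −0.14), and differences between these genes were not tested. Adam15, counted in a feature merged with an unnamed gene, had 41.2 to 57.2 in control and 28.7 to 45.2 in STZ libraries (log2FC −0.38, SE 0.27, adjusted p = 0.588).

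Adam19 had between 5.13 and 17.8 normalized counts in control and between 4.64 and 15.1 in STZ libraries. Adam23, a brain ADAM that lacks the catalytic zinc site, had 8.20, 6.10 and 13.4 in control and 0.929, 4.95 and 12.05 in STZ libraries, above the olfactory percentile in 3 of 6 libraries. Their log2FCs were −0.40 (SE 0.60, adjusted p = 0.863) and −0.88 (SE 0.75, adjusted p = 0.679). Of the 9 single-gene members listed as testis or sperm ADAMs, only Adam4 was tested. It had 21.5, 20.6 and 13.4 in control and 12.1, 21.8 and 13.1 in STZ libraries (log2FC −0.25, SE 0.38, adjusted p = 0.866), above the olfactory percentile in all 6 libraries. The 16 Adam members not tested had means up to 4.91, and 9 of them never exceeded 3 reads. Of the 16, Adam8, a leukocyte ADAM, had at most 2.79 normalized counts, and Adam12, an ADAM of mesenchymal cells, at most 4.45.

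For none of the 7 tested ADAMTS and ADAMTS-like members were the groups apart. Adamts9, a versican- and aggrecan-cleaving enzyme, was the only one of the 6 tested with a mean over 20. It had 21.5, 28.2 and 62.3 normalized counts in control and 45.5, 37.6 and 77.3 in STZ libraries. The groups overlapped through control replicate 3, and the log2FC was 0.58 (SE 0.40, 95% interval −0.29 to 1.46, adjusted p = 0.573). Adamts5, an aggrecanase, had 8.20, 14.5 and 24.5 in control and 7.43, 9.89 and 25.1 in STZ libraries (log2FC −0.20, SE 0.53, adjusted p = 0.933). Both were highest in replicate 3 of each group.

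Adamts1, a hyalectan-cleaving enzyme, had 1.03 normalized counts, or 1 read, in control replicate 1 and between 10.2 and 23.7 in the other libraries. Its log2FC of 0.96 (SE 0.77, adjusted p = 0.655) became −0.08 without that library. Adamts18 had no reads in replicate 1 of either group and between 8.39 and 21.1 normalized counts elsewhere (log2FC −0.16, SE 1.26, adjusted p = 0.978). Adamts12, which acts on cartilage oligomeric matrix protein, and Adamts3, a procollagen N-propeptidase, had log2FC values of 0.30 (SE 0.56, adjusted p = 0.899) and 0.51 (SE 0.69, adjusted p = 0.843). Adamts12 had 6.15, 4.58 and 15.6 normalized counts in control and 6.50, 13.8 and 10.04 in STZ libraries. Adamts3 had 2.05, 4.58 and 12.2 in control and 4.64, 7.91 and 12.05 in STZ libraries, and both overlapped between the groups. Adamtsl2, a matrix protein without protease activity, had 5.13, 4.58 and 8.90 in control and 1.86, 11.9 and 18.1 in STZ libraries (log2FC 0.35, SE 0.73, adjusted p = 0.912). The 5 Adamts members not tested, Adamts2, Adamts7, Adamts14, Adamts15 and Adamts17, had means up to 4.01.

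The summed level of the 6 tested ADAMTS members reached 39.0, 76.3 and 152 normalized counts for control and 74.3, 102 and 154 for STZ. That of the 33 members not tested was 36.9, 57.2 and 101 and 41.8, 61.3 and 88.3. In both groups these sums and the olfactory percentile were lowest in replicate 1 and highest in replicate 3. Of the 7 tested ADAMTS and ADAMTS-like members, 5 were highest in replicate 3 of both groups, as were 8 of all 21 tested members. The part of this background in the low members' values was not tested. Without the replicate 3 libraries, 0 of the 21 members were called.

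**Figure D3:**
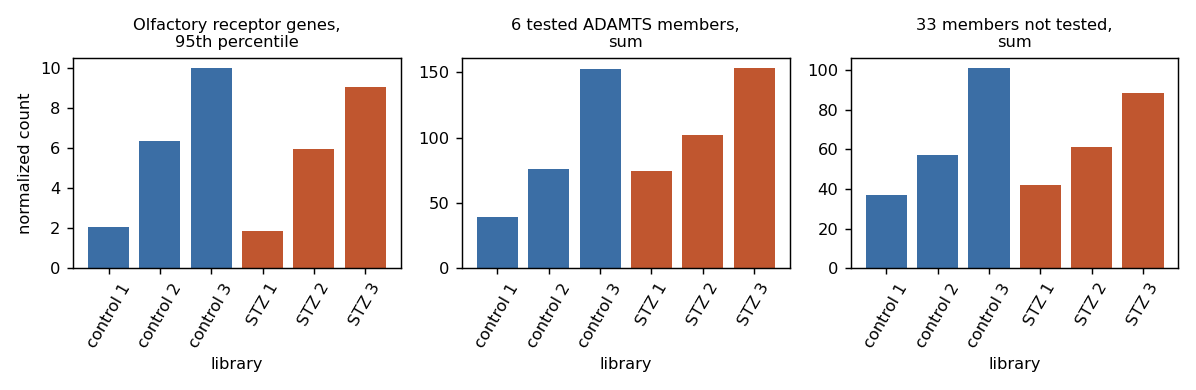
Normalized counts by library for the olfactory receptor percentile, the sum of the 6 tested ADAMTS members and the sum of the 33 members not tested, with control bars in blue and STZ bars in orange. Each panel is lowest in replicate 1 and highest in replicate 3 of both groups, while the control and STZ ranges overlap in each.

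The other genes of the pathway were taken from 5 lists of activators and regulators, partners, substrates and related proteases. Of the 56 tested, 5 passed, 1 higher and 4 lower in STZ rats, against the 2.1% of all features. These were Plat and Serpine2 of the MMP activators and cell-surface regulators (2 of 13 tested), a list that also holds inhibitors. The others were Egf and Sdc1 of the proteins shed by ADAM10 or ADAM17 (2 of 14) and Vcan of the matrix substrates (1 of 17). None of the 6 partners of ADAM10 and ADAM17 and none of the 6 other metalloproteases passed. The median log2FC of the 56 was −0.00309, beside 0.00556 over all features. Egf is also among the genes that the study ranks lowest on these samples, so its place in the list is not independent evidence.

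Plat, tissue plasminogen activator, makes plasmin, which in turn activates several proMMPs. It fell from 11051, 14469 and 9503 normalized counts in the control to 4539, 4625 and 3861 in the STZ libraries. The groups were far apart, and the log2FC was −1.41 (SE 0.23, adjusted p = 0.0125 by limma). Serpine2, or protease nexin-1, a serine protease inhibitor that acts on thrombin and plasminogen activators, fell from 193, 326 and 137 to 52.9, 58.4 and 52.2, a log2FC of −1.89 (SE 0.29, adjusted p = 0.00858). An activator of plasminogen and an inhibitor of such activators were thus lower in the same STZ libraries. With a single library left out, Plat lost its call without control replicate 2 or STZ replicate 2, whereas the call of Serpine2 was kept each time.

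Plau, urokinase, had 1276, 1103 and 1222 normalized counts in control and 869, 1180 and 590 in STZ libraries (log2FC −0.50, SE 0.24, adjusted p = 0.376). Reck, a membrane-anchored inhibitor of several MMPs, had 171 to 255 and 233 to 286 (log2FC 0.24, SE 0.21, adjusted p = 0.691). Rhbdf1 and Rhbdf2, the iRhom proteins that carry ADAM17 to the cell surface, had a log2FC of −0.14 (SE 0.31, adjusted p = 0.918) and 0.00 (SE 0.25), and neither passed. Tspan15, a partner of ADAM10, was not analysed here.

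Egf, the precursor of epidermal growth factor, fell from 182, 173 and 254 normalized counts in the control to 58.5, 49.5 and 36.1 in the STZ libraries, a log2FC of −2.06 (SE 0.25, adjusted p = 0.0022). Hbegf, an EGF receptor ligand released by ADAM17, had 12.3, 12.2 and 25.6 and 2.79, 7.91 and 16.1 (log2FC −1.01, SE 0.59, adjusted p = 0.48). Sdc1, or syndecan-1, a cell surface proteoglycan, rose from 44.1, 49.6 and 24.5 to 103, 104 and 92.4, a log2FC of 1.38 (SE 0.28, adjusted p = 0.0328), and with a single library left out passed only without control replicate 3. Vcan, or versican, a proteoglycan that ADAMTS enzymes cleave, fell from 495, 1060 and 719 to 238, 150 and 274, a log2FC of −1.75 (SE 0.30, adjusted p = 0.015), and did not pass without control replicate 2 or without STZ replicate 2. Fibronectin (Fn1) was counted in a feature merged with another gene and so is outside the count above. That feature had 1624, 1908 and 2814 normalized counts in control and 3543, 4942 and 4772 in STZ libraries (log2FC 1.09, SE 0.25). Its adjusted p of 0.0489 lay at the threshold and exceeded it in 12 of 19 alternatives.

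**Figure D4:**
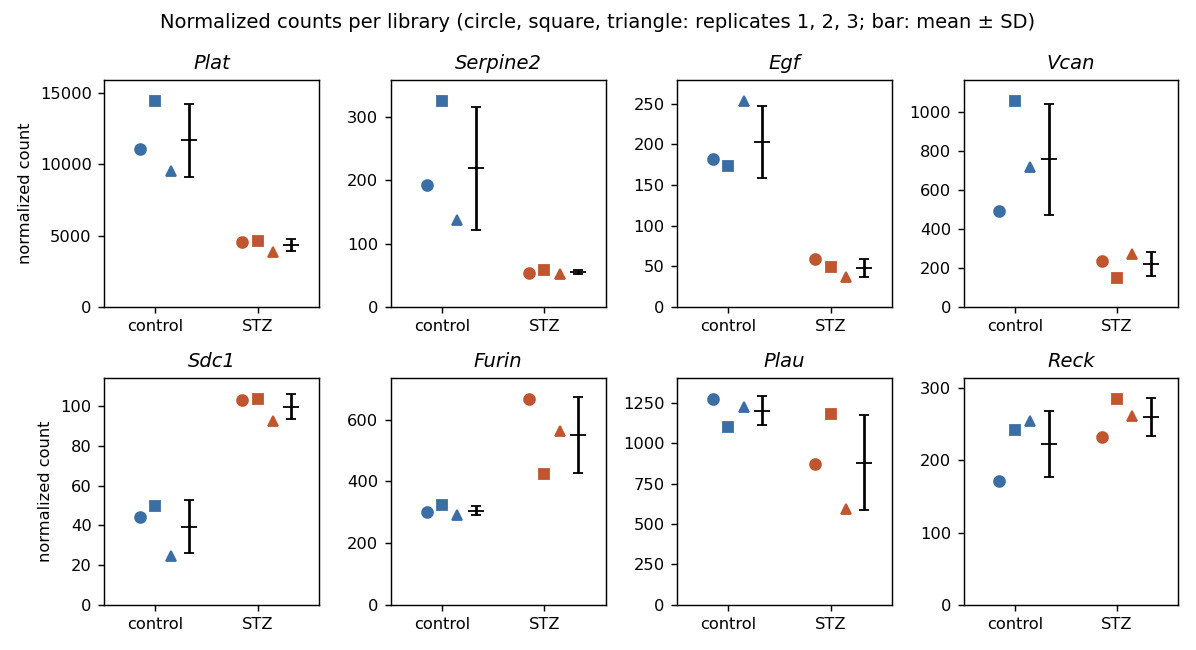
Normalized counts on the vertical axis in the 3 control and 3 STZ libraries for the 5 pathway genes that passed, and for Furin, Plau and Reck, which did not, with the group mean ± SD beside the points. Plat, Serpine2, Egf and Vcan are lower in all 3 STZ libraries, Sdc1 and Furin are higher in all 3, and the groups of Plau and of Reck overlap.

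Some markers of several cell types differed between the groups in the same libraries. Over all features tested, 2.1% were called and 20.3% had groups that did not overlap. Of 5 endothelial markers tested, 2 passed, both lower in STZ rats (Emcn and Plvap), and the summed level of the list was 6225 to 8068 normalized counts in control and 3126 to 3448 in STZ libraries. Most of that sum was Emcn, with a mean of 5510 in control and 2095 in STZ libraries. The other endothelial markers did not share a direction. Cdh5 was lower in all 3 STZ libraries (log2FC −0.56, SE 0.18, adjusted p = 0.163), Tie1 was higher in all 3 (log2FC 0.55, SE 0.23, adjusted p = 0.286) and Pecam1 overlapped (log2FC 0.04, SE 0.27, adjusted p = 0.972), and none of the 3 passed. Of 2 thick ascending limb markers, Umod passed as lower, with a list sum of 917 to 1632 and 174 to 539. Slc12a1, the other, was lower in all 3 STZ libraries but did not pass (log2FC −1.47, SE 0.37, adjusted p = 0.0732 by limma). Of 4 urothelial markers, Upk1b and Upk3a passed as higher, with a sum of 79.3 to 124 and 420 to 501, most of it in STZ libraries from Upk3a (mean 344). Upk2 was higher in all 3 STZ libraries but did not pass (log2FC 0.96, SE 0.47, adjusted p = 0.377 by limma). Upk1a overlapped (log2FC 0.04, SE 0.39, adjusted p = 0.979). Umod and Upk3a are also among the most changed genes that the study lists from these samples, so their calls are not independent evidence. Of 6 fibroblast and pericyte markers, Pdgfra and Tagln passed as higher, and the sums, mostly Dcn, overlapped, with 7681 to 9248 and 5077 to 11279. The others of that list overlapped between the groups and did not pass. Their log2FCs were −0.37 for Dcn, −0.16 for Pdgfrb, −0.01 for Col3a1 and 0.05 for Col1a1. None of 7 leukocyte markers tested passed (sums of 304 to 481 and 387 to 471). No marker found in these lists was at 0 in all libraries. The part of these cell types in the values of Plat, Serpine2, Egf, Vcan, Sdc1, Mmp11 and Adam17 was not tested.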

How the data were processed

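RNA from the IM tip (3 control and 3 STZ libraries) was made into cDNA with a PCR-based kit and sequenced on an Illumina HiSeq2000. The authors aligned reads to rn4 with STAR 2.3.1t, counted uniquely mapped reads per gene and normalized them with DESeq 1.16.0, and the deposited signal is each feature's count divided by a size factor per library. Which program counted the reads, and whether it used strand, is not given in the sources used here, so overlapping or antisense genes may share reads. All values (100.0%) were whole multiples of 1 step per library, within a tolerance of 0.001, which gave whole reads for edgeR 4.0.16 (quasi-likelihood test, TMM) and DESeq2 1.42.0 as alternatives. In STZ replicates 2 and 3 the step lay near 1. Reads without molecular identifiers are not independent molecules, so the floor of 3 reads covers counting error only.

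The groups were compared with limma 3.58.1 (R 4.3.3, intensity trend) on log2(normalized count + 1), over features with a mean of at least 5, with a pseudocount of 1, which understates changes of low genes. Intervals are at the 95% level. Members, gene lists and tests were chosen with earlier results of these data known. Per-library values cover members called or not overlapping, all TIMPs, Adam10, Adam17, Mmp9, Mmp14 and the highest member of each subgroup. Adam8, Adam9, Adam12, Adam15, Adam19, Mmp16, Mmp23, Adamts1, Adamts5 and Adamts18 were named after their values were seen. Pathway genes are named if called or among a short list of well-known regulators and substrates. The rest of the 56 tested enter only the counts. A further listed gene was left out of the lists and counts and is not reported here. No transcript lengths were used, so counts of different genes set side by side above reflect transcript length as well as level. The methods were tested on simulated data. Python 3.11.15 was used for tables and plots, with pandas 2.3.3 and matplotlib 3.10.9.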

Additional observations from a re-analysis of the deposited data

How the results depend on the processing

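No member was called under any of the 19 alternatives except the replicate block, which called 1, Mmp11 (adjusted p = 0.0398 by limma). The labels do not pair libraries of the 2 groups by replicate number. Deviations of same-numbered libraries from their group means correlated at 0.395, −0.061 and 0.323 over 9315 features for replicates 1, 2 and 3. For control and STZ libraries of different numbers the correlations ran from −0.472 to 0.220. What same-numbered libraries share was not tested. The count of features called, 283 in the main analysis, was 98 with no filter on low values, 31 without the intensity trend, 501 with quantile normalization, 599 with DESeq2, 561 with the replicate block, and 88 (without STZ replicate 2) to 352 (without control replicate 3) with a single library left out, and within 1.5 times under the other 8 alternatives that keep all libraries or leave out both replicate 3 libraries. Of the pathway genes, 5 in the main analysis, 0 were called with no filter on low values or without the trend, 2 without control replicate 2 or STZ replicate 2, up to 5 with another library left out, 8 with DESeq2 and with the replicate block, and 5 to 7 under the other alternatives that keep all libraries. The cause of these shifts was not tested. Without both replicate 3 libraries, an alternative chosen after seeing the data, 231 features and 4 pathway genes were called. Leaving out libraries changed the sign of the log2 fold change of Adam10 (−0.10 to 0.26), Adam9 (−0.00258 to 0.34), Adamts1 (−0.0768 to 1.504), Adamts12 (−0.0237 to 0.76), Adamts18 (−1.44 to 1.04), Adamts5 (−0.68 to 0.16), Adamtsl2 (−0.20 to 1.17), Mmp17 (−0.40 to 0.40), Mmp1b+Mmp12+Mmp3 (−0.23 to 0.67), Timp1 (−0.33 to 0.17), Timp3 (−0.45 to 0.13), Timp4 (−0.16 to 0.87), Rhbdf1 (−0.48 to 0.0313) and Rhbdf2 (−0.17 to 0.20). For the 37 genes followed, 619 of 686 recomputed values kept sign and side of the threshold, 32 lost a call, 5 gained one and 30 changed sign. In this tally a missing adjusted p, as for Adam19 with DESeq2, counted as not called. The standard errors of the 6 tested ADAMTS members, 0.40 to 1.26 on the log2 scale, limit what could be detected for them. The source of this spread was not tested.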
